A study of Mus musculus with 35 samples.

Results

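The mitochondrial ribosomal protein genes are the nuclear genes whose mouse symbol begins with Mrpl or Mrps followed by a number. By this rule 78 protein-coding genes were members, of 55487 genes counted in both assays. The symbols begin with Mrpl in 49 of them and with Mrps in 29. By the position of the protein in the ribosome, 30 members belong to the large subunit and have bacterial homologs, 21 belong to the large subunit and are particular to mitochondria, 16 are small-subunit proteins with bacterial homologs, and 10 are small-subunit proteins particular to mitochondria. The remaining member, Mrps36, carries the family name but is known as a component of the 2-oxoglutarate dehydrogenase complex.

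The mitochondrial ribosome translates the few messages encoded by mitochondrial DNA, all of which specify subunits of the respiratory chain or ATP synthase. Its RNAs are made inside the organelle, whereas its proteins are encoded in the nucleus, made by cytosolic ribosomes and imported. Acute myeloid leukemia cells are known to depend on mitochondrial translation.

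The cells were mouse acute myeloid leukemia cells driven by the fusion oncogene MLL-AF9 and marked with GFP. They stemmed from a single terminally ill mouse, were expanded ex vivo with cytokines, and were injected into male recipients aged 8 to 10 weeks, so every group carried MLL-AF9, GFP and a guide RNA. The guide was either a scrambled control (sgScramble) or directed against Ogfod1 (sgOgfod1), the prolyl hydroxylase of the cytosolic small-subunit protein uS12, encoded by Rps23. Vehicle mice received a diet with standard amino acids and PBS. Treated mice received a diet without branched-chain amino acids and 5+3 chemotherapy, that is, 5 daily doses of cytarabine (100 mg/kg each) of which the first 3 came with doxorubicin (3 mg/kg each), so diet and chemotherapy cannot be told apart. GFP-positive marrow cells were sorted when the response to chemotherapy was largest, and 2 of 20 microlitres of each lysate gave full-length mRNA libraries by Smart-seq2, while the rest was digested to sequence ribosome-protected fragments, called footprints. Among vehicle mice, mRNA was available for 5 with sgScramble and 5 with sgOgfod1 cells, and footprints for 3 of each. Among treated mice, mRNA was available for 7 with sgScramble and 6 with sgOgfod1 cells, and footprints for 4 and 2 of them.

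Depth ran from 31.9 to 143 M (mega) counts over 23 mRNA libraries and from 5.71 to 14.6 M over 12 footprint libraries. All 8 markers of myeloid leukemia progenitors had a mean of at least 1 CPM (counts per M) in every group of both assays. Ogfod1 checked the genotype labels. Its mRNA lay between 19.7 and 24.9 CPM in vehicle sgScramble libraries and between 8.57 and 11.7 CPM in vehicle sgOgfod1 libraries, while treated libraries ran from 12.3 to 31.6 CPM and from 3.75 to 13.0 CPM, which overlapped. Ogfod1 footprints separated without overlap, at 12.4 to 17.5 CPM in all sgScramble libraries and 1.44 to 2.98 CPM in all sgOgfod1 libraries. Treated sgScramble replicate 4 and treated sgOgfod1 replicate 3 stood apart from their groups in mRNA, and both lack footprints, so member counts are given with and without them.

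The promoters of the family were searched for 3 short motifs known from genes of housekeeping and mitochondrial function. RefSeq start sites on GRCm38.p6 were matched by symbol for 69 of the 78 members, with 75 promoters in all, each read over 300 bases from 250 before to 50 after the start and searched on both strands. The ETS-family motif CCGGAAG stood in 34.7% of member promoters and in 8.86% of all 32851 promoters of the table. The YY1 motif AAGATGG stood in 17.3% of member promoters against 6.34%, and the core of the NRF1 motif, GCGCATG, in 10.7% against 3.91%. These shares were not matched for base composition, and 31 members held none of the motifs. The upstream 250 bases of the 3 members whose mRNA and footprints both rose with treatment in sgScramble cells, and of the member with the highest level, are printed below on the strand of the gene, with motif matches in capitals. No matches overlapped in these sequences.
Mrpl52 (chr14:54426659-54426908, plus strand, YY1 then ETS): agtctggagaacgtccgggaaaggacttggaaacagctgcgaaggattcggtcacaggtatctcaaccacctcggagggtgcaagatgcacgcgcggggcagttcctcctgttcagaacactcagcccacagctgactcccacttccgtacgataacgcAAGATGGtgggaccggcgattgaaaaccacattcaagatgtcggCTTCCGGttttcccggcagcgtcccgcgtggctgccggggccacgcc
Mrpl17 (chr7:105811088-105811337, minus strand, ETS then NRF1): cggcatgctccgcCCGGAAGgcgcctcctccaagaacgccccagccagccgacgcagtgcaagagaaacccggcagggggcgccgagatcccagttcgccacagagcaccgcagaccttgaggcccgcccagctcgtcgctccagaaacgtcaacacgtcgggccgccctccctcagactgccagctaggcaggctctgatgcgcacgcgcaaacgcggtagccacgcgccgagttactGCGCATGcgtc
Mrpl41 (chr2:24975099-24975348, minus strand, no match): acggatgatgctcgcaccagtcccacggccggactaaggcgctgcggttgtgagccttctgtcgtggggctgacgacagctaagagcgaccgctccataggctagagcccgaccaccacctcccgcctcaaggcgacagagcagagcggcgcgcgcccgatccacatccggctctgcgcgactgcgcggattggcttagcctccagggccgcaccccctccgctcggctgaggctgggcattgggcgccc
Mrpl33 (chr5:31613701-31613950, plus strand, NRF1): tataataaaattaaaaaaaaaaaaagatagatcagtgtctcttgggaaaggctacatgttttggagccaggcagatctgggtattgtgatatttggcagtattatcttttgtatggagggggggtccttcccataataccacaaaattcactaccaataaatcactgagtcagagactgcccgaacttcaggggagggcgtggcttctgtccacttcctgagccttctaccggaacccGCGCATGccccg
Mrpl52 thus held an ETS and a YY1 match, Mrpl17 an ETS and an NRF1 match, and Mrpl41 held none. Among the 17 members with a promoter whose mRNA rose with treatment in sgScramble cells, 9 held the ETS motif, 3 the YY1 motif and 1 the NRF1 motif. Among the 52 others with a promoter the numbers were 17, 10 and 7.

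In vehicle sgScramble cells most members lay above the median gene in mRNA and in footprints. Levels were set per kilobase of coding sequence. The mRNA counts also include reads from untranslated exons, so mRNA levels on this scale can differ between genes through exon length. Exonic and coding bases were 7326 and 321 for Mrpl33, for instance, and 783 and 558 for Mrps28. The part of exon length in the mRNA levels and ranks was not tested. The median mRNA level of the members was 57.2 CPM per kb, against 30.9 over 10080 genes with at least 1 CPM in both assays, and 67 of the 78 lay above that median. The median footprint level was 24.7 CPM per kb against 9.50, with 74 members above. Members were less spread than genes at large, with a standard deviation (SD) of log2 level of 1.14 in mRNA and 0.83 in footprints, against 2.15 and 2.17. The rank correlation of mRNA with footprint level was 0.58 across members and 0.81 across all these genes, as a description of genes within the same libraries.

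Mrpl33, a homolog of bacterial L33, had the highest mRNA level at 618 ± 52.1 CPM per kb (SD, n = 5), followed by Mrpl57 at 437 ± 46.1, whose SD does not overlap it. Mrps18c at 349, Mrps17 at 281 and Mrpl42 at 276 CPM per kb came next. The lowest mRNA levels were those of Mrps31 at 10.2 ± 1.68, Mrpl38 at 11.6 ± 2.05, Mrps5 at 20.0, Mrps36 at 21.2 and Mrpl23 at 22.2 CPM per kb, and Mrps31 and Mrpl38 did not differ beyond their spread. The plot of mRNA against footprint level shows these extremes. In footprints Mrpl33 at 89.5 ± 8.62 CPM per kb (SD, n = 3) and Mrps14, a homolog of bacterial S14, at 86.4 ± 6.83 were highest and overlapped, ahead of Mrpl51 at 78.7, Mrps18c at 75.4 and Mrpl57 at 70.4. Mrpl37 at 8.11, Mrpl38 at 8.30, Mrps27 at 8.54, Mrpl53 at 8.75 and Mrpl47 at 10.3 CPM per kb were lowest.

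**Figure D1:**
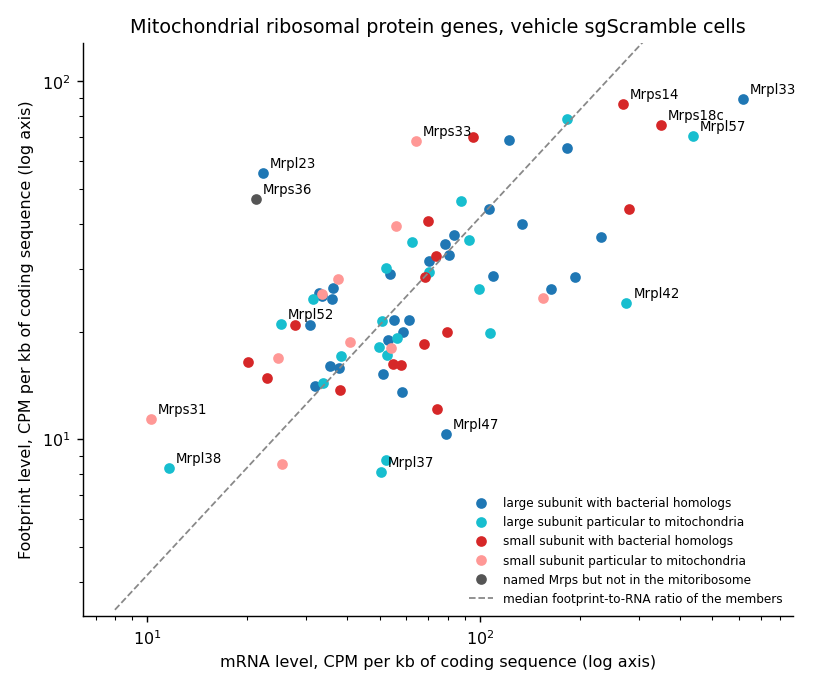
mRNA level on the horizontal axis and footprint level on the vertical axis, both in CPM per kb of coding sequence on log axes, for the 78 genes in vehicle sgScramble cells, as means over 5 mRNA and 3 footprint libraries, with colours for the classes and a dashed line at the members' median ratio of footprints to mRNA. Mrpl33 lies at the upper right at 618 and 89.5, Mrpl38 at the lower left at 11.6 and 8.30, and Mrpl23 and Mrps36 lie above genes of like mRNA level.

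The ratio of footprints to mRNA in the same mouse differed widely between members. Its median was 0.417, against 0.335 over all genes. Mrpl23, a homolog of bacterial L23, was highest with a mean ratio of 2.49 (2.20 to 2.79 over 3 mice), then Mrps36 with 2.12 (1.85 to 2.46), Mrps31 with 1.11, Mrps33 with 1.06 and Mrpl38 with 0.803. Mrpl42 was lowest with 0.0872 (0.0703 to 0.102), then Mrpl47 with 0.128, Mrpl18 with 0.141, Mrpl33 with 0.145 and Mrpl57 with 0.156. Full-length mRNA libraries also count reads from untranslated exons, and the part of exon length in this ratio was not tested.

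The members with the 2 highest ratios, Mrpl23 and Mrps36, have processed pseudogenes, as does Mrpl48, whose ratio of 0.621 ranked lower. Mrpl23-ps1 held 21.4 to 30.5 footprint CPM over the 12 libraries, against 21.4 to 30.7 for Mrpl23 itself, while its mRNA was 1.22 to 3.59 CPM against 10.5 to 24.3. Mrps36-ps1 held 9.73 to 14.4 footprint CPM against 11.7 to 16.1 for Mrps36, with 0.0123 to 0.575 CPM of mRNA against 4.82 to 8.74. Mrpl48-ps held 10.3 to 16.5 footprint CPM against 15.3 to 23.9 for Mrpl48. Footprint values of Mrpl23, Mrps36 and Mrpl48 are therefore uncertain, since short fragments may be shared between copies. Only pseudogenes named after a member were looked for, so copies of other members under other names were not seen. Annotated pseudogenes of all genes held 23.4% to 31.2% of footprint counts per library, against 0.27% to 0.426% of mRNA counts. Sharing of footprints by the other members was not tested. Exons of 33 members overlap another gene, and the mRNA protocol keeps no strand. Mrpl46 and Mrps11 share 173 bases on opposite strands, and 1605 of the 2064 exonic bases of Mrps34 are shared with Mapk8ip3 or Nme3. Of the 6576 exonic bases of Mrps25, 4590 are shared with Nr2c2.

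Treatment was followed by higher mRNA of 18 members in sgScramble cells, a count that changed with a coding length offset and with libraries left out. Of 78 members, 18 were higher and 0 lower by edgeR's quasi-likelihood test with Benjamini-Hochberg adjustment over 21474 genes (adjusted p under 0.05). That is 23.1% of members, against 12.9% of all genes called in either direction and 8.6% called higher, and against 20.1% called in either direction among 2568 protein-coding genes in the middle range of the members' coding length. With an offset for coding length 1 member was higher and 3 were lower. Without treated sgScramble replicates 4, 6 and 7 only Mrpl52 was called, as given below. The share of all genes called in those fits is not given. The log2 fold change was positive in 71 members, with a median of 0.29, whereas the median over protein-coding genes was 0.03 with 52.5% positive. Calls came from every class of the ribosome, with 6 of 30 and 6 of 21 in the large subunit and 4 of 16 and 2 of 10 in the small subunit. Mrps36, outside the ribosome, had a log2 fold change of 0.04 ± 0.15 (standard error, SE).

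Mrpl52, a large-subunit protein particular to mitochondria, changed most. Its mRNA was 7.29, 11.0, 10.8, 8.57 and 8.09 CPM in the 5 vehicle sgScramble libraries, and from 13.1 through a median of 17.3 to 44.3 CPM in the 7 treated ones, so the groups did not overlap. The log2 fold change was 1.23 ± 0.24 (SE, edgeR adjusted p = 0.00174). Mrpl17, a homolog of bacterial L17 near the peptide exit, stood at 96.9, 99.1, 91.9, 98.5 and 95.4 CPM in vehicle libraries and at 115 to 261 CPM (median 153) in treated ones. These groups did not overlap either, with a log2 fold change of 0.73 ± 0.19 (edgeR adjusted p = 0.0143). Mrps16, a homolog of bacterial S16, rose from 28.2 ± 3.24 CPM (SD, n = 5) to 45.7 ± 13.6 (n = 7), a log2 fold change of 0.70 ± 0.18 (edgeR adjusted p = 0.0129). Its lowest treated library at 32.1 CPM lay just above its highest vehicle library at 31.6 CPM.

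Mrps21, the shortest member with 87 codons, ran from 22.1 to 28.1 CPM in vehicle and from 28.2 through 38.9 to 80.7 CPM in treated sgScramble libraries (log2 fold change 0.80 ± 0.23, edgeR adjusted p = 0.021). Of the large subunit, Mrpl27 rose by 0.61 on the log2 scale, Mrpl20 by 0.59, Mrpl54 by 0.59, Mrpl46 by 0.54 and Mrpl55 by 0.51. Of the small subunit, Mrps26 rose by 0.54. Mrpl12, the stalk protein that recruits translation factors, rose by 0.60 ± 0.18, from 32.4 ± 3.47 to 49.0 ± 9.55 CPM, and Mrpl45, which anchors the ribosome at the inner membrane, by 0.42 ± 0.13. The largest edgeR adjusted p among these 8 was 0.0327. In all, treated and vehicle libraries did not overlap for 10 members, each with all treated libraries higher, against 5.94% of genes separated in that direction.

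Several members with known special roles did not pass the test. Mrps12, the mitochondrial counterpart of the Ogfod1 substrate uS12, had a log2 fold change of 0.38 ± 0.20 (edgeR adjusted p = 0.241), with 25.1 to 31.8 CPM in vehicle and 23.3 to 58.9 CPM in treated libraries, which overlap. Mrpl58, a peptidyl-tRNA hydrolase that rescues stalled ribosomes, changed by 0.52 ± 0.21 (adjusted p = 0.105) and Mrpl44, which has an RNase III fold, by 0.11 ± 0.14 (adjusted p = 0.663). The 3 paralogs related to bacterial S18 differed in outcome, although their differences were not tested. Mrps18a, which sits in the large subunit, rose by 0.54 ± 0.16 (edgeR adjusted p = 0.029), while Mrps18b changed by 0.28 ± 0.16 (adjusted p = 0.264) and Mrps18c by 0.42 ± 0.16 (adjusted p = 0.0911).

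**Figure D2:**
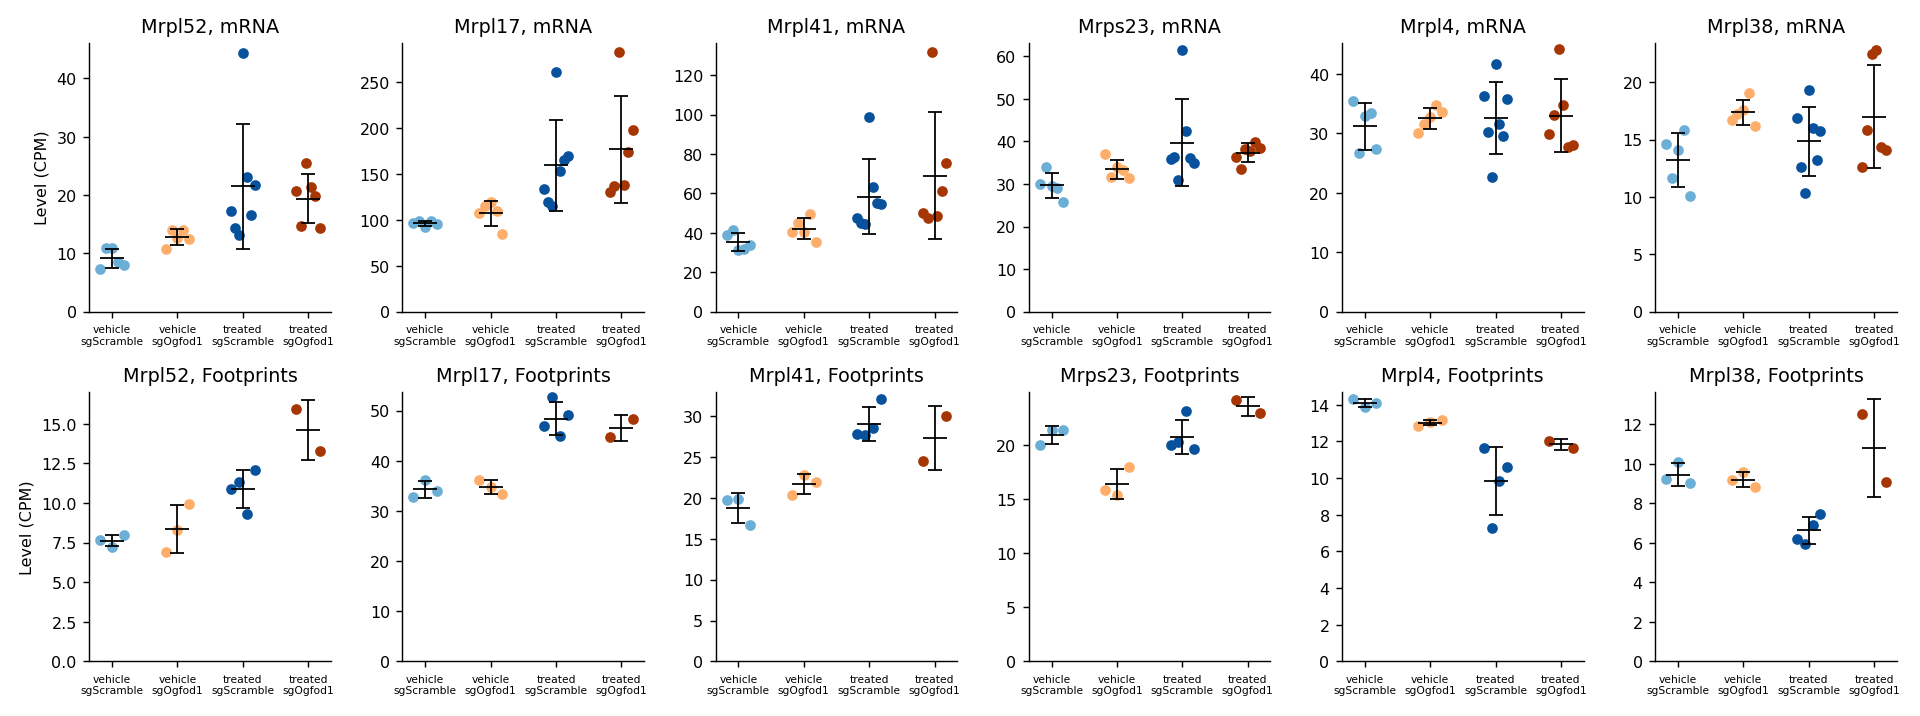
Level in CPM of 6 members in each mRNA library (top) and footprint library (bottom), by group, with each point a mouse, the horizontal bar at the group mean and whiskers of 1 SD. Mrpl52 and Mrpl17 lie higher in treated than in vehicle sgScramble libraries in both assays, and the mRNA of treated sgScramble replicate 4 is the highest point of its group at 44.3 and 261 CPM.

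In sgOgfod1 cells the share of members called with treatment was near that of all genes. There 5 members were higher and 0 lower (6.41% of members), against 9.87% of all genes in either direction and 5.69% higher. Among genes of like coding length 14.4% were called, and with an offset for coding length 0 members were higher and 1 was lower. The log2 fold change was positive in 69 members with a median of 0.28, and the median over protein-coding genes was 0.01 with 50.6% positive. Mrpl18, a homolog of the bacterial 5S rRNA-binding protein L18, ran from 106 to 137 CPM in vehicle and from 126 to 220 CPM in treated libraries, which overlap (0.61 ± 0.15, edgeR adjusted p = 0.0117). Mrps18c ran from 147 to 187 and from 204 to 325 CPM, with no overlap (0.61 ± 0.17, edgeR adjusted p = 0.022). Mrpl17 ran from 84.6 to 119 and from 130.0 to 283 CPM, also apart (0.72 ± 0.20, edgeR adjusted p = 0.0223). Mrps17 rose by 0.39 ± 0.12 and Mrpl15 by 0.45 ± 0.14 (edgeR adjusted p = 0.0468 and 0.0472). All treated libraries lay above all vehicle libraries for 6 members, against 4.41% of genes.

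The 2 members called in both genotypes were Mrpl17 and Mrpl18. The 18 members called in sgScramble cells had log2 fold changes from 0.16 to 0.72 in sgOgfod1 cells, with a median of 0.48. The test of the difference between genotypes called 0 members by edgeR, against 0% of all genes called. At an unadjusted p under 0.05 there were 0 members, against 975 of 21474 genes. The smallest unadjusted p was that of Mrpl52, whose treatment effect was lower in sgOgfod1 cells by a log2 value of -0.63 ± 0.34 (adjusted p = 1 by edgeR). The larger number of calls in sgScramble cells was thus not shown to be a difference between genotypes.

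Member counts in mRNA changed when single libraries were left out and when coding length was offset. Summed over the family, mRNA of sgScramble cells was 3697 ± 223 CPM with vehicle (n = 5) and 4525 ± 918 with treatment (n = 7). In sgOgfod1 cells it was 4060 ± 149 (n = 5) and 4935 ± 1083 CPM (n = 6). The SD was thus several times larger in treated groups. Replicate 4 of treated sgScramble reached 6357 CPM and replicate 3 of treated sgOgfod1 reached 6864 CPM, and the other treated libraries ran from 3562 to 5379 CPM, as the plot of summed levels shows. Without these 2 libraries 21 members were called higher in sgScramble cells, 17 of them among the 18, and 11 in sgOgfod1 cells. The share of all genes called in that fit is not given here, so these counts do not set the family apart from other genes. As a share of protein-coding counts the sum was 0.407% and 0.437% in vehicle and treated sgScramble cells, and 0.447% and 0.487% in sgOgfod1 cells.

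**Figure D3:**
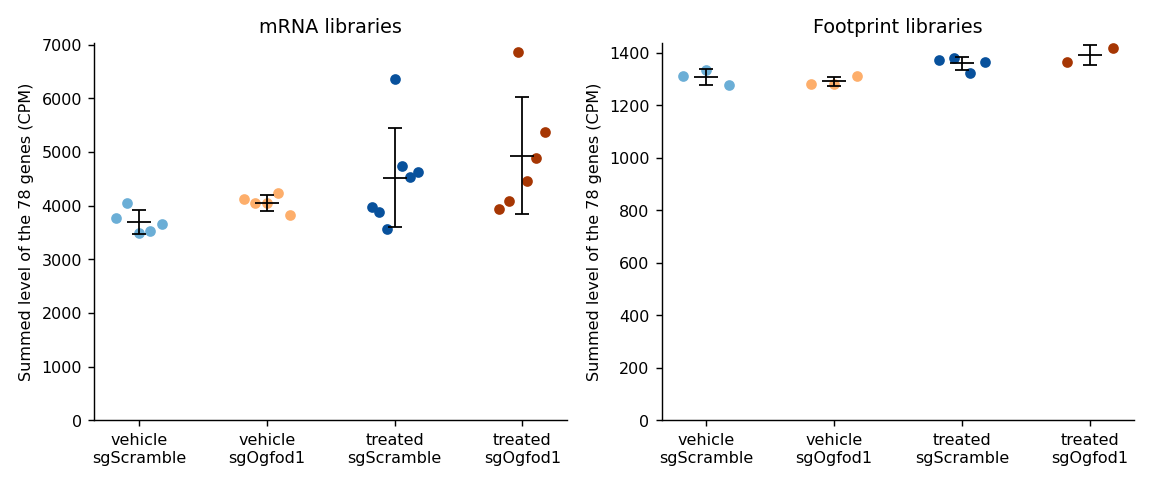
Summed CPM of the 78 genes in each mRNA library (left) and each footprint library (right), by group, with each point a mouse, the horizontal bar at the group mean and whiskers of 1 SD. Treated mRNA libraries spread from 3562 to 6864 CPM, while the 12 footprint sums lie between 1275 and 1418 CPM.

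Short genes rose and long genes fell in treated mRNA libraries, and the members are short, with a median of 194 codons against 391 over protein-coding genes. In sgScramble cells the median log2 fold change was 0.25 in the shortest 10% of 14335 protein-coding genes and -0.28 in the longest 10%. Among 2568 genes in the middle range of the members' coding length, the median was 0.20, with 68.0% positive and 20.1% called, near the members' 0.29 and 23.1%. In sgOgfod1 cells the same genes had a median of 0.21 and 14.4% were called, against 0.28 and 6.41% for the members. With a per-library offset for coding length, the count in sgScramble cells became 1 higher, Mrpl52, and 3 lower, Mrpl24, Mrps2 and Mrps25, and the members' median became 0.096. In sgOgfod1 cells it became 0 higher and 1 lower, Mrps25, with a median of 0.12. For both genotypes, the share of all genes called with the offset is not given. The rank correlation of a library's deviation with coding length was lowest in the libraries that stood apart, at -0.31 in treated sgScramble replicate 4 and -0.44 in treated sgOgfod1 replicate 3.

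**Figure D4:**
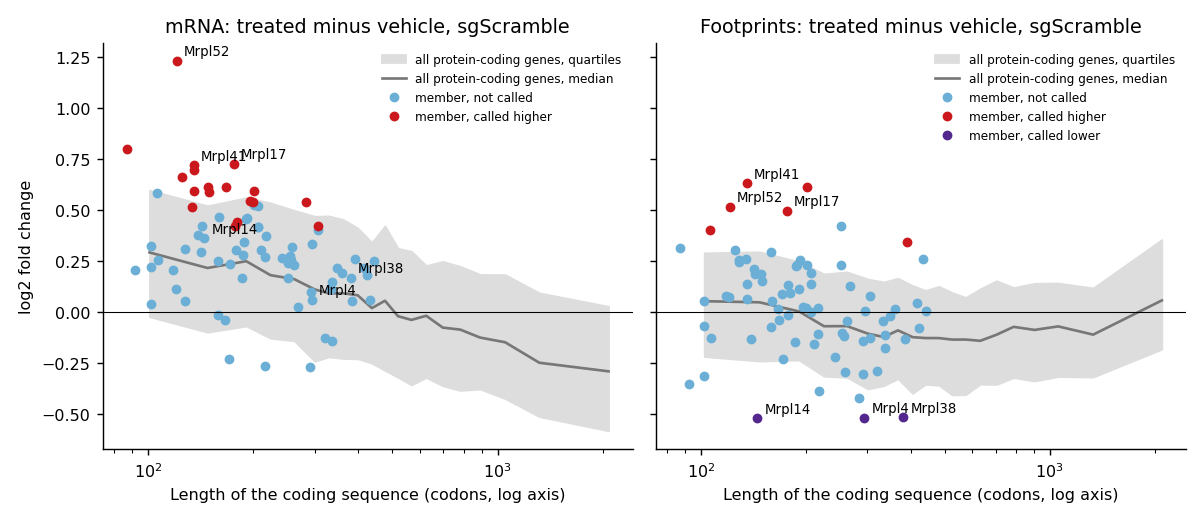
log2 fold change of treated over vehicle sgScramble cells against coding length in codons on a log axis, for mRNA (left) and footprints (right), with members as points and the medians and quartiles of all protein-coding genes in length bins. In mRNA the bin medians fall from 0.29 to -0.29 from the shortest to the longest genes, while in footprints they stay between -0.14 and 0.06.

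Summed markers of other cell types differed between groups, although the cells had been sorted for GFP. The summed mRNA of 10 tissue macrophage markers reached 2950 CPM in replicate 4 of treated sgScramble, 1656 in replicate 7 and 1367 in replicate 6, and was 329 to 455 CPM in the other 4. It was 356 to 473 CPM in vehicle sgScramble, 258 to 330 in vehicle sgOgfod1 and 156 to 768 in treated sgOgfod1 libraries, and no marker was at 0 throughout a group. Without those 3 libraries, an alternative chosen after seeing the data, 1 member, Mrpl52, was called in sgScramble cells. The members' median was then 0.15, with 66 of 78 positive. How many of all genes were called without those libraries is not given. The sum of 10 neutrophil granule markers, none at 0, was 8494 to 14320 CPM in vehicle and 18850 to 54590 in treated sgScramble libraries, and 10010 to 18820 and 21300 to 79180 in sgOgfod1 libraries, and myeloid leukemia cells can express these genes themselves. The sum of 5 megakaryocyte markers was 3.75 to 6.33 CPM in vehicle and 11.6 to 23.8 CPM in treated sgScramble libraries, which did not overlap, and 2.06 to 6.39 and 2.25 to 48.3 CPM in sgOgfod1 libraries, which did. Of these 5 markers, 1 had a mean of at least 1 CPM in each vehicle group. The number was 3 in treated sgScramble and 4 in treated sgOgfod1 cells. The part of other cells in the members' change was not tested, and in bulk samples fewer cells of a type and less RNA per cell cannot be told apart.

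Of other libraries, leaving out any 1 of the vehicle sgScramble mice brought the count in sgScramble cells to between 3 and 9. Leaving out treated replicate 4 or 6 brought it to 7 or 11. The shares of all genes called in these fits are not given, so a drop particular to the family is not shown. Mrpl52 passed the threshold in all 33 alternative fits run for mRNA in sgScramble cells, with log2 fold changes from 0.75 to 1.32, and Mrpl17 in 28 of them.

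Footprints of the family moved in both directions with treatment in sgScramble cells. By edgeR 6 members were higher and 3 lower, or 11.5% of members, against 15.6% of 18290 genes called in either direction, 8.12% higher and 7.44% lower. This share lay below the background. The log2 fold change was positive in 46 members with a median of 0.02, against a median of -0.08 and 41.2% positive over protein-coding genes. The summed level was 1307 ± 29.7 CPM in vehicle (n = 3) and 1359 ± 26.1 in treated sgScramble cells (n = 4), and 1290 ± 18.1 (n = 3) and 1391 ± 37.5 (n = 2) in sgOgfod1 cells.

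Mrpl41, a large-subunit protein particular to mitochondria, had footprints of 19.8, 19.9 and 16.6 CPM in vehicle and 27.9, 27.7, 28.6 and 32.2 CPM in treated sgScramble libraries. All treated values were higher, and the log2 fold change was 0.63 ± 0.12 (edgeR adjusted p = 0.00263). Mrpl17 footprints rose from 32.8, 36.1 and 34.01 CPM to 46.9, 52.7, 44.9 and 49.1 CPM, again without overlap (0.50 ± 0.10, edgeR adjusted p = 0.00332). Mrps10, a homolog of bacterial S10, rose from 12.4, 13.6 and 10.1 CPM to 19.9, 19.1, 17.8 and 16.6 CPM (0.61 ± 0.14, edgeR adjusted p = 0.00802). Mrpl52 footprints stood at 7.66, 7.25 and 7.95 CPM in vehicle and 10.9, 11.3, 9.27 and 12.1 CPM in treated libraries, also apart (0.51 ± 0.16, edgeR adjusted p = 0.0368). Mrps33 rose by 0.40 ± 0.11 and Mrps9 by 0.34 ± 0.11 (edgeR adjusted p = 0.0259 and 0.0452).

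The 3 members that fell are large-subunit proteins. Mrpl4, a homolog of bacterial L4, which lines the exit tunnel, had footprints of 14.3, 13.9 and 14.1 CPM in vehicle and 11.7, 7.27, 9.86 and 10.6 CPM in treated libraries (-0.52 ± 0.14, edgeR adjusted p = 0.0237). Mrpl14 fell from 11.1, 12.0 and 10.3 CPM to 7.95, 7.51, 8.54 and 7.05 CPM (-0.52 ± 0.15, edgeR adjusted p = 0.0268). Mrpl38, part of the central protuberance, fell from 9.25, 10.1 and 9.01 CPM to 6.21, 5.96, 6.92 and 7.46 CPM (-0.51 ± 0.16, edgeR adjusted p = 0.0347). None of these groups overlapped. mRNA of the 3 genes did not pass the test in the same comparison, with vehicle and treated means of 31.2 and 32.6 CPM for Mrpl4, 14.2 and 18.3 for Mrpl14, and 13.2 and 14.9 for Mrpl38. Over the family 11 members had all treated footprint libraries higher and 7 all lower, against 15.1% and 16.1% of genes. Leaving out vehicle sgScramble replicate 2, 3 or 5, or treated replicate 2, brought the 9 calls to 3, with the share of all genes not given. Mrpl17 and Mrpl41 passed in all 19 alternative fits and Mrps10 in 18.

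In sgOgfod1 cells 3 members had higher footprints with treatment and 0 lower (3.85% of members), against 8.22% of genes in either direction and 4.65% higher. Mrpl52 rose from 6.91, 8.27 and 9.94 CPM to 15.95 and 13.3 CPM (0.78 ± 0.18, edgeR adjusted p = 0.0127). Mrps23, a small-subunit protein particular to mitochondria, rose from 15.8, 15.4 and 18.0 CPM to 24.2 and 22.98 CPM (0.51 ± 0.13, edgeR adjusted p = 0.022). Mrpl17 rose from 36.2, 34.7 and 33.4 CPM to 44.7 and 48.4 CPM (0.42 ± 0.11, edgeR adjusted p = 0.0301). Only 2 treated sgOgfod1 mice had footprints. Without either of them 1 member was called, and without vehicle sgOgfod1 replicate 3 none was by edgeR. Mrpl33 had the smallest unadjusted p among members with a negative value, at -0.40 ± 0.17 (adjusted p = 0.16 by edgeR). The test of the difference between genotypes called 0 members by edgeR, against 0.0656% of genes called. It gave 4 members at an unadjusted p under 0.05, against 1699 of 18290 genes. Its smallest p was for Mrpl38 (0.75 ± 0.23, edgeR adjusted p = 0.338).

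The mRNA and footprint changes shared few calls. In sgScramble cells 15 members were called in mRNA only, 6 in footprints only, 54 in neither and 3 in both, which is 16.7% of the mRNA calls and 33.3% of the footprint calls. The 3 were Mrpl17, Mrpl41 and Mrpl52, each higher in both assays. Of the 18 members with higher mRNA, 15 had a positive footprint value. In sgOgfod1 cells Mrpl17 was called in both. Across the 78 members the 2 changes correlated with r = 0.44 in sgScramble and 0.381 in sgOgfod1 cells. Across 11054 genes r was 0.663 and 0.591. These values are a description, since genes within a library are not independent. The mRNA changes came from 23 mice and the footprint changes from 12 of these, so unlike sets of mice were compared. The plot of one change against the other shows the members' scatter.

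**Figure D5:**
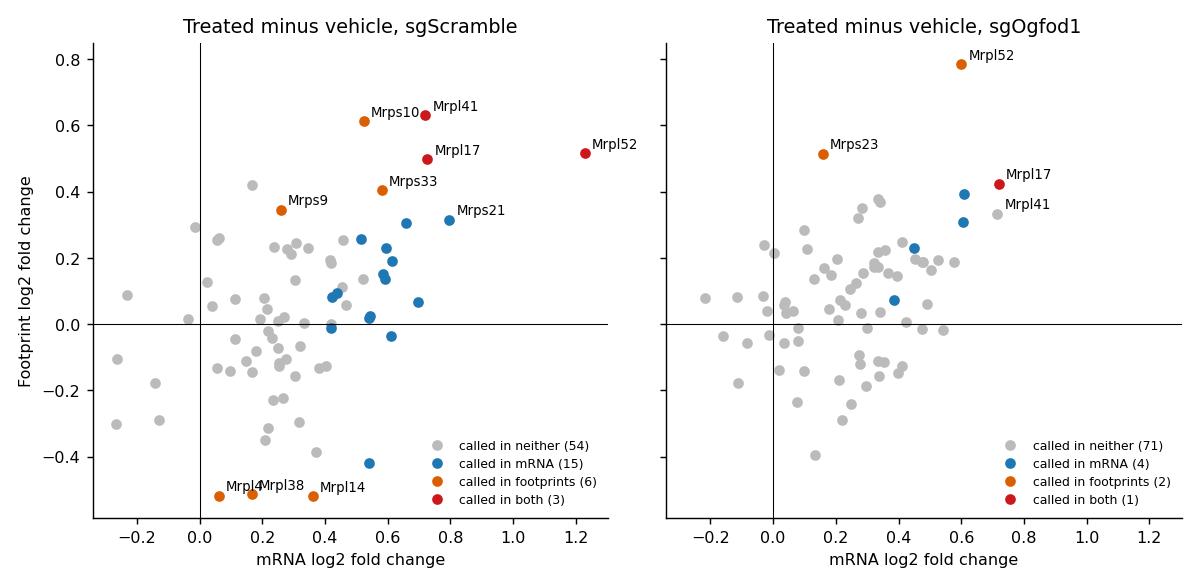
Footprint log2 fold change against mRNA log2 fold change of the 78 genes, treated minus vehicle, in sgScramble (left) and sgOgfod1 cells (right), with calls in each assay marked. In sgScramble cells 43 of 78 points lie in the upper right quadrant and the 3 called in both are Mrpl17, Mrpl41 and Mrpl52.

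Footprints relative to mRNA, fitted as the difference between assays within each of 12 mice, changed in 0 members with treatment in sgScramble cells, against 0.93% of 28606 genes. By edgeR 11 of 78 members had an unadjusted p under 0.05, against 3193 of 28606 genes. The smallest edgeR adjusted p values were 0.108 for Mrps34 (-0.57 ± 0.16) and 0.134 for Mrpl46 (-0.66 ± 0.20). Those of Mrpl38 (-0.70 ± 0.22) and Mrps25 (0.43 ± 0.14) were 0.151 and 0.201. Exons of Mrps34, Mrpl46 and Mrps25 overlap other genes. DESeq2 called 4 members in this comparison, 2 higher and 2 lower. Mrpl50 and Mrps25 were the higher and Mrpl38 and Mrps34 the lower ones. The share of all genes called by DESeq2 is not given. In sgOgfod1 cells 0 members were called by edgeR against 0.0839% of genes. An unadjusted p under 0.05 was held by 1 member, against 1521 of 28606 genes. This member was Mrps27 at -0.51 ± 0.19 (edgeR adjusted p = 0.718). Per mouse, the median ratio of footprints to mRNA over members ran from 0.312 to 0.436, and over all genes from 0.294 to 0.349, and the members' values in treated and vehicle mice overlapped.

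Loss of Ogfod1 gave no mRNA call in the family. Ogfod1 mRNA itself did not pass in vehicle cells (-1.07 ± 0.24, edgeR adjusted p = 0.0846). It passed in treated cells (-1.24 ± 0.21, edgeR adjusted p = 0.00608). An absence of calls in vehicle cells therefore does not show that mRNA was unchanged. In vehicle cells 0 members passed by edgeR against 0.116% of genes. An unadjusted p under 0.05 was held by 2 members, against 993 of 21474 genes. The log2 difference of sgOgfod1 from sgScramble cells was positive in 74 of 78 members, with a median of 0.15. The median was 0.02 with 54% positive over protein-coding genes, and 0.05 with 60.2% positive over those of like coding length. With the coding length offset the members' median was 0.087, with 66 positive. Marker sums differed between these groups too, with means of 1.81 and 12.1 CPM for 6 erythroid markers, 106 and 75.9 CPM for 5 stromal and endothelial markers, and 430 and 306 CPM for the macrophage markers in sgScramble and sgOgfod1 cells. Their part in the members' values was not tested. Few of these markers had a mean of at least 1 CPM in vehicle sgScramble and sgOgfod1 cells. The numbers were 0 and 3 of 6 erythroid, and 1 and 2 of 5 stromal and endothelial markers, against 6 and 8 of 10 macrophage markers. The smallest p was that of Mrpl38, at 13.2 ± 2.34 CPM in sgScramble and 17.4 ± 1.10 in sgOgfod1 cells (n = 5 each; 0.39 ± 0.18, adjusted p = 1 by edgeR), followed by Mrpl47 (0.26), Mrps6 (0.46) and Mrpl52 (0.48). In treated cells 0 members passed against 0.391% of genes, with a median of 0.08. At an unadjusted p under 0.05 there were 4 members, against 2768 of 21474 genes. Mrps2 (0.33 ± 0.11, edgeR adjusted p = 0.175) and Mrps17 (0.33 ± 0.11, edgeR adjusted p = 0.186) were nearest to the threshold.

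Footprints of vehicle cells gave positive and negative genotype values in equal number. There 0 members passed by edgeR against 1.81% of genes, and 39 of 78 were positive with a median of 0.00. An unadjusted p under 0.05 was held by 8 members, against 3132 of 18290 genes. Mrps5 was nearest (0.44 ± 0.13, edgeR adjusted p = 0.0843), and Mrps23 had 20.0, 21.4 and 21.4 CPM in sgScramble against 15.8, 15.4 and 18.0 CPM in sgOgfod1 libraries, which did not overlap (-0.34 ± 0.12, edgeR adjusted p = 0.149). All sgOgfod1 libraries lay below all sgScramble libraries for 12 members and above them for 8, against 13.1% and 13.4% of genes. Footprints relative to mRNA were negative in 58 members with a median of -0.16 (-0.31 to -0.02 with 1 mouse left out). Of the members 0 passed by edgeR, against 0.0594% of genes. At an unadjusted p under 0.05 there were 12 members, against 2060 of 28606 genes. The smallest adjusted p was 0.434 for Mrps34 (-0.55 ± 0.17). Over all protein-coding genes this change rose with coding length, with a rank correlation of 0.23, and genes in the members' middle range of length had a median of -0.13.

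In treated cells 1 member differed between genotypes, against 1.58% of genes in either direction and 0.59% higher. Mrpl38 footprints were 6.21, 5.96, 6.92 and 7.46 CPM in sgScramble and 12.5 and 9.07 CPM in sgOgfod1 libraries (0.71 ± 0.17, edgeR adjusted p = 0.0467). The call was lost in 9 of the fits that leave out 1 library, among them the fit without treated sgOgfod1 replicate 4, which holds the value of 12.5 CPM. Mrpl33, at 20.8 to 28.8 CPM in sgScramble and 14.5 and 19.3 CPM in sgOgfod1 libraries, did not pass (-0.64 ± 0.16, edgeR adjusted p = 0.0552). Relative to mRNA 0 members passed by edgeR against 0.0489% of genes. At an unadjusted p under 0.05 there were 4 members, against 1932 of 28606 genes. For the difference of treatment effects 0 members passed against 0% of genes, with 8 members and 1663 genes at that unadjusted p. DESeq2 also called 0 members in every comparison where edgeR called 0, except for footprints relative to mRNA with treatment in sgScramble cells, given above. Mrps12 did not pass in any edgeR comparison, with genotype values of 0.06 ± 0.22 and 0.04 ± 0.19 in mRNA and -0.20 ± 0.16 and -0.19 ± 0.17 in footprints of vehicle and treated cells. Rps23 did not pass between genotypes either. Its genotype values were -0.006 and -0.016 in mRNA and -0.006 and 0.157 in footprints of vehicle and treated cells. With treatment, Rps23 footprints rose by 0.41 ± 0.10 in sgScramble and 0.58 ± 0.12 in sgOgfod1 cells (edgeR adjusted p = 0.0104 and 0.00692).

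Other genes of the mitochondrial translation system were read against the same background, 12.9% of all genes called in mRNA with treatment in sgScramble cells. Of 5 mitochondrial ribosomal proteins with other names, 1 rose in mRNA with treatment in sgScramble cells, namely Aurkaip1, a small-subunit protein (0.73, edgeR adjusted p = 0.0243), while Gadd45gip1 of the large subunit did not pass (0.44, adjusted p = 0.0900). Of 15 genes listed as mitochondrial translation factors, with Lrpprc and Slirp among them, 0 rose and 1 fell. The gene that fell was the release factor Mtrf1l (-0.52, edgeR adjusted p = 0.0136), and the list median was -0.14. Of 24 assembly and rRNA modification factors 1 rose, Mpv17l2 (0.53, edgeR adjusted p = 0.0419), and 1 fell, Mettl17, which helps to assemble the small subunit (-0.44, adjusted p = 0.0398), with a list median of -0.09. Of 12 transcription and RNA processing genes 1 rose, Hsd17b10, a subunit of mitochondrial RNase P (0.87, edgeR adjusted p = 0.0147).

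With treatment in sgOgfod1 cells 9.87% of all genes were called in mRNA. There 1 of the 5 proteins with other names rose, and 1 of 15 genes on the translation factor list fell, namely Lrpprc. Of 24 assembly factors 1 fell, and of 12 transcription and RNA processing genes 1 rose and 1 fell. Aurkaip1 rose (0.71, edgeR adjusted p = 0.0391), and so did Trmt10c of RNase P (0.34, adjusted p = 0.0413). Mettl17 fell (-0.59, edgeR adjusted p = 0.0118), as did Polrmt, the mitochondrial RNA polymerase (-0.60, adjusted p = 0.0494), and Lrpprc, which stabilizes mitochondrial messages (-0.69, adjusted p = 0.0114). In footprints of sgScramble cells 15.6% of all genes were called. There 1 of 15 genes on the translation factor list rose, namely Slirp. Of 24 assembly factors 2 fell, and of 12 transcription and RNA processing genes 1 fell. Footprints rose for Slirp, the partner of Lrpprc (0.56, edgeR adjusted p = 0.0104). They fell for Nsun4, an rRNA methyltransferase (-0.74, adjusted p = 0.0388), Noa1, an assembly GTPase (-0.56, adjusted p = 0.0347), and Polrmt (-0.69, adjusted p = 0.00937). Footprints in sgOgfod1 cells gave 0 calls in these 4 lists by edgeR, against 8.22% of all genes, and the genotype comparisons gave 0 in either assay.

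Member mRNAs varied together across libraries. The Pearson correlation of a member with the mean of the family over the 23 mRNA libraries had a median of 0.855, and 70 of 78 exceeded 0.5, against a median of -0.12 and 20.5% for other protein-coding genes. Mrps15 (0.971) and Mrpl41 (0.957) followed the mean most closely, and Mrps25 (0.0114) and Mrpl24 (-0.14) least. These values are descriptions, since the libraries span groups and share the trend with coding length. The mean also includes the member itself, whereas the other genes do not enter it and were not matched for coding length. Outside the family the 5 genes most like the mean were Stoml2 (0.976), Gm49416 (0.973), Gm49776 (0.97), 1810009A15Rik (0.969) and Ndufa12 (0.965). Stoml2 encodes a mitochondrial inner-membrane protein and Ndufa12 a subunit of respiratory complex I.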

How the data were processed

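mRNA and footprints were measured in the libraries described above. The authors deposited raw counts of reads per gene for each library. The submitters' processing notes name STAR, Bowtie2, cutadapt, featureCounts and SAMtools, and the builds mm10 and GRCm38. Versions, strand setting and the treatment of reads that map to several places are not given in the sources used here. Gene names, coding lengths and overlaps came from GENCODE M21 on GRCm38, through which 55227 of 55487 genes were named. Members, lists and tests were chosen with earlier results of these data known.

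Counts were tested with edgeR 4.0.16 in R 4.3.3 after filterByExpr and TMM scaling, using the robust quasi-likelihood test, 1 fit per assay over 4 groups, and Benjamini-Hochberg adjustment over all genes. All 78 members passed the filter in every fit. Footprints relative to mRNA were the assay-by-group term over 12 mice with the mouse as a block, a pairing given by the labels. Levels are CPM on TMM-scaled library sizes. P-values measure the spread between mice that shared 1 leukemia source. The fits were also run on simulated counts, with the outcome not given here. Changes as small as those of most members, libraries standing apart and the trend with coding length were not simulated. Replicate numbers did not pair mice across groups, since 5 of 31 mRNA and 0 of 11 footprint pairs with the same number correlated above 0.1. No pair of replicates agreed within sampling noise.

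Named were up to 12 called members per comparison and direction by p, up to 4 of the smallest p where fewer passed, 10 members of special role, the 5 highest and lowest levels and ratios, up to 4 genes per other list, and the 5 genes most like the family mean. Of the lists, Trmt61b and Prorp were not matched. Members named for a small count in an alternative, for shared exons or pseudogenes, or as extremes of the correlation with the family mean were chosen after their values were seen. Alternatives were DESeq2 1.42.0, its size factors, no filter, protein-coding genes only, a coding length offset, a term for library numbers, blocks, and leaving out libraries. No library column was left unused.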

Additional observations from a re-analysis of the deposited data

Results flagged for a closer look

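The values below lay far from the other libraries of their group by Dixon's test, which marks about 1 group in 20 by chance. Treated sgScramble replicate 4 had the highest summed mRNA of the family at 6357 CPM, with the next at 4731, and the highest sum of the large subunit at 4431 CPM and of the small subunit at 1919 CPM. Of the named members this library was highest for Mrpl14 (36.5 CPM), Mrpl17 (261 CPM), Mrpl41 (99.0 CPM), Mrpl52 (44.3 CPM), Mrpl58 (49.3 CPM), Mrps18c (317 CPM), Mrps21 (80.7 CPM), Mrps23 (61.5 CPM) and Mrps30 (157 CPM). Treated sgOgfod1 replicate 3 was highest for Mrpl12 (85.3 CPM), Mrpl14 (31.3 CPM), Mrpl41 (132 CPM), Mrpl58 (54.1 CPM), Mrps12 (67.3 CPM), Mrps16 (68.2 CPM), Mrps18a (66.6 CPM), Mrps21 (71.7 CPM) and Mrps36 (8.74 CPM). Vehicle sgScramble replicate 5 was lowest for Mrps18b mRNA (21.4 CPM), and treated sgScramble replicate 3 was lowest for Mrps36 mRNA (4.82 CPM).

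Over all 78 members, 27 stood out in treated sgScramble mRNA, 25 of them with replicate 4 highest, and 23 in treated sgOgfod1 mRNA, each with replicate 3 highest. In vehicle mRNA the numbers were 1 in sgScramble and 2 in sgOgfod1 cells, and in treated sgScramble footprints 6. Both libraries lack a footprint partner, so the footprints give no check of these mice.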

How the results depend on the processing

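Counts of called members in mRNA moved with the processing, and the cause was not tested. Counts from alternative fits, in this section and above, are given without the share of all genes called in the same fit. They therefore do not tell a shift of the family from a shift of all genes. For treatment in sgScramble cells, the 18 calls became 4 with the coding length offset (1 higher, 3 lower, a reversal), 6 without a filter, 2 with only the mice that have footprints, 3 with a term for library numbers (2 higher, 1 lower), and 1 without treated sgScramble replicates 4, 6 and 7, chosen after seeing the data. DESeq2 called 20 higher and 1 lower. For sgOgfod1 cells, the 5 calls became 1 with the offset (lower, a reversal), 3 without a filter, 1 with footprint mice only, 1 with the library number term, 11 with DESeq2, 8 with protein-coding genes only, 11 without both libraries that stood apart, and 18 without the 3 macrophage-marker libraries (treated sgScramble libraries, outside that comparison). Footprint calls for treatment in sgScramble cells were 9, and 5 with DESeq2 (4 higher, 1 lower), 5 without a filter (3 and 2) and 4 with the library number term (3 and 1). In sgOgfod1 cells the 3 calls became 0 with that term. The single call for genotype in treated footprints became 1 lower with DESeq2 (Mrpl33, a reversal), 2 without a filter, 2 with protein-coding genes only (in both cases Mrpl38 higher and Mrpl33 lower) and 0 with the library number term. For footprints relative to mRNA in sgScramble cells, 0 calls became 4 with DESeq2 and 3 lower with protein-coding genes only.

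With 1 library left out, counts ran from 3 to 24 (mRNA, sgScramble; highest without treated sgOgfod1 replicate 3), 2 to 18 (mRNA, sgOgfod1; highest without treated sgScramble replicate 4, 12 without treated sgOgfod1 replicate 1, lowest without vehicle sgOgfod1 replicate 1), 3 to 9 (footprints, sgScramble), 0 to 3 (footprints, sgOgfod1), 0 to 2 (genotype in treated footprints) and 0 to 1 (footprints relative to mRNA, sgScramble). The other comparisons stayed at 0. With the replicate number as a block across groups, calls were 1 for mRNA in sgScramble, 1 in sgOgfod1, 6 for footprints in sgScramble, 1 in sgOgfod1 and 0 for genotype in treated footprints; the numbers pair no mice across groups. Without the mouse block, footprints relative to mRNA gave 0 calls. The members' median for genotype in treated mRNA ran from -0.05 to 0.27, so its sign rests on single libraries. The effect of depth, 5.71 M counts in the shallowest footprint library, was not tested.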
